A study of Mus musculus with 17 samples.

Results

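Plasmacytoid dendritic cells are immune cells that release large amounts of type I interferon when endosomal receptors meet viral nucleic acid. Transcripts of 10 genes of these cells and their progenitors were followed in mouse bone marrow: Siglech, Ly6d, Jchain, Mzb1, Pld3, Pld4, Tcf4, Runx2, Bcl11a and Spib. All 10 are among the 35321 gene symbols of the count table, and all 10 passed the filter on low counts, which kept 14920 genes. The genes were chosen by their known place in these cells and by measured values of these libraries, since Jchain, Pld3 and Pld4 were selected on their fall after lipopolysaccharide (LPS). Comparisons with control mice therefore describe the genes and test nothing about them.

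Polyadenylated RNA was sequenced in 17 libraries from HSPC (hematopoietic stem and progenitor cells), the source of all blood cells. All groups were wild-type C57BL/6J mice, an inbred strain, and all were injected into the peritoneum before the marrow was taken and the cells were sorted by flow cytometry. The 5 groups were phosphate-buffered saline (PBS, 5 libraries, titled day 0), LPS alone, harvested after 24 h (3 libraries) or 72 h (3), and LPS given with a blocking antibody to the interleukin-10 receptor, harvested after 24 h (3) or 72 h (3). LPS comes from the outer membrane of bacteria and sets off inflammation, which the cytokine interleukin-10 restrains. The doses are 5 µg of LPS and 100 µg of antibody in the text on the series' design, and the same figures in mg in the protocol of each sample, so the unit is not settled. The labels give no age or sex, no group received the antibody without LPS, and a control antibody is not mentioned. They also do not say that replicates were separate mice, so the p-values measure only the spread between these libraries, which may be technical.

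In textbook accounts, plasmacytoid dendritic cells arise in the marrow from Flt3-positive progenitors, some of which also make B cells. The E protein Tcf4 sets their identity together with Spi-B, Runx2, Bcl11a and Irf8, while Id proteins, above all Id2, oppose it. Several of the genes are shared with the B lineage, in which Jchain and Mzb1 serve antibody secretion and Ly6d marks early committed progenitors.

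RefSeq promoter windows (build GRCm38.p6) matched 7 of the 10 genes. 4 of them are shown because Jchain and Siglech had the greatest falls after LPS and the exonuclease genes Pld3 and Pld4 had means on opposite sides of PBS at 72 h of LPS. They are Jchain (chr5:88527898-88528097, minus strand), Siglech (chr7:55767984-55768183, plus strand), Pld3 (chr7:27553219-27553418, minus strand) and Pld4 (chr12:112760455-112760654, plus strand). Each is the 200 bases upstream of the gene's start, written 5′ to 3′ on the gene's strand. Capitals mark matches on either strand to CANNTG (the E-box that E proteins such as Tcf4 bind), TGTGGT (RUNX factors), GAGGAA (Spi-B and its relative PU.1) or GAAANNGAA (interferon regulatory factors).
Jchain: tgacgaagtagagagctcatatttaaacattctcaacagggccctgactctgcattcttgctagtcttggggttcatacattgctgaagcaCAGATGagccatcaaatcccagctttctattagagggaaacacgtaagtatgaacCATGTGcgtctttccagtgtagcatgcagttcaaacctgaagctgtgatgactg
Siglech: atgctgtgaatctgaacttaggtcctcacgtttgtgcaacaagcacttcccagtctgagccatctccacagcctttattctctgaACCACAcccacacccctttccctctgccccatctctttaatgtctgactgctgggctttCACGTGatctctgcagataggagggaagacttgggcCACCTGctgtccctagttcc
Pld3: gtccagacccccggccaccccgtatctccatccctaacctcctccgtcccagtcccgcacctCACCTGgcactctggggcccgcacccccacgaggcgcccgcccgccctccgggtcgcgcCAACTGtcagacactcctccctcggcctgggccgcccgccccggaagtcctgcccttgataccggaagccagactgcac
Pld4: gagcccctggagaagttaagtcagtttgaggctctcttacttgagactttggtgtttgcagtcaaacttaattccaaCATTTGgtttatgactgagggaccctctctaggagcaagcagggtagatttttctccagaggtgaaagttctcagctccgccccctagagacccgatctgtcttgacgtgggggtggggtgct

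The Jchain, Siglech and Pld3 windows held 2 E-boxes each and the Pld4 window held 1. The Siglech window also held 1 RUNX match, on the reverse strand. No match to GAGGAA or GAAANNGAA lay in any of the 7 windows. The Spib window held 2 E-boxes, the Bcl11a window 1, and the Runx2 window 1 that overlapped a RUNX match. Over all 32851 windows of this length, 58.2% held an E-box, 11.2% a RUNX match, 19% GAGGAA and 5.57% GAAANNGAA. A match is a run of letters and not a measured binding site, and these data hold no binding measurement.

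Library totals ranged from 10516722 to 16006001 counts, and Spearman's rho between libraries of a group ranged from 0.941 to 0.992. The LPS 24 h library 1 stood apart in its scaling factor, 0.799 against 0.947 to 1.12 elsewhere, and in the fewest genes detected, 16431. The HSPC label was checked against Kit, the receptor for stem cell factor, and Cd34, a progenitor surface protein, which averaged 399 and 691 CPM in the PBS libraries. CPM relates a gene's count to the scaled total of its library. In bulk RNA, fewer cells of a type and less RNA per cell cannot be told apart.

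Among PBS libraries, levels per length were compared as CPM per kilobase of exon. Jchain was highest at 244 ± 149 (SD, n = 5), followed by Ly6d at 70.3 ± 46.9, Pld3 at 32.4 ± 26 and Pld4 at 22.6 ± 9. Mzb1 (14.6), Runx2 (13.9), Bcl11a (8.98), Siglech (7.71), Spib (6.35) and Tcf4 (4.68) followed. The ranges of neighbours in this order overlapped except for Runx2 and Bcl11a. The PBS library 2 was highest for 8 of the 10 genes. The same library had a summed level of 4080 CPM for 16 monocyte and macrophage markers, against 725 to 1500 in the other PBS libraries, and the highest sum of 15 B-lymphoid markers, 323 CPM.

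After 24 h of LPS, all 10 genes were lower than in PBS, with no overlap between the libraries of the 2 groups. The size differed by gene: Jchain stood at 4.15% of its PBS mean, Siglech at 6.29%, Ly6d at 8.82%, Mzb1 at 9.09% and Pld3 at 15.3%. The transcription factors and Pld4 kept more, from 30.8% for Spib through 38.1% for Runx2, 40.8% for Pld4 and 46.2% for Tcf4 to 63.3% for Bcl11a. Of the 10 genes, 9 were called lower (edgeR's quasi-likelihood test, Benjamini-Hochberg adjusted p below 0.05), all but Spib. Over all genes tested, 18.5% were called lower and 22.2% had no overlap in that direction. Nothing is read from these counts, since the genes were selected on this fall. The median log2 change was -2.19 for the 10 genes and -0.03 for all genes.

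**Figure D1:**
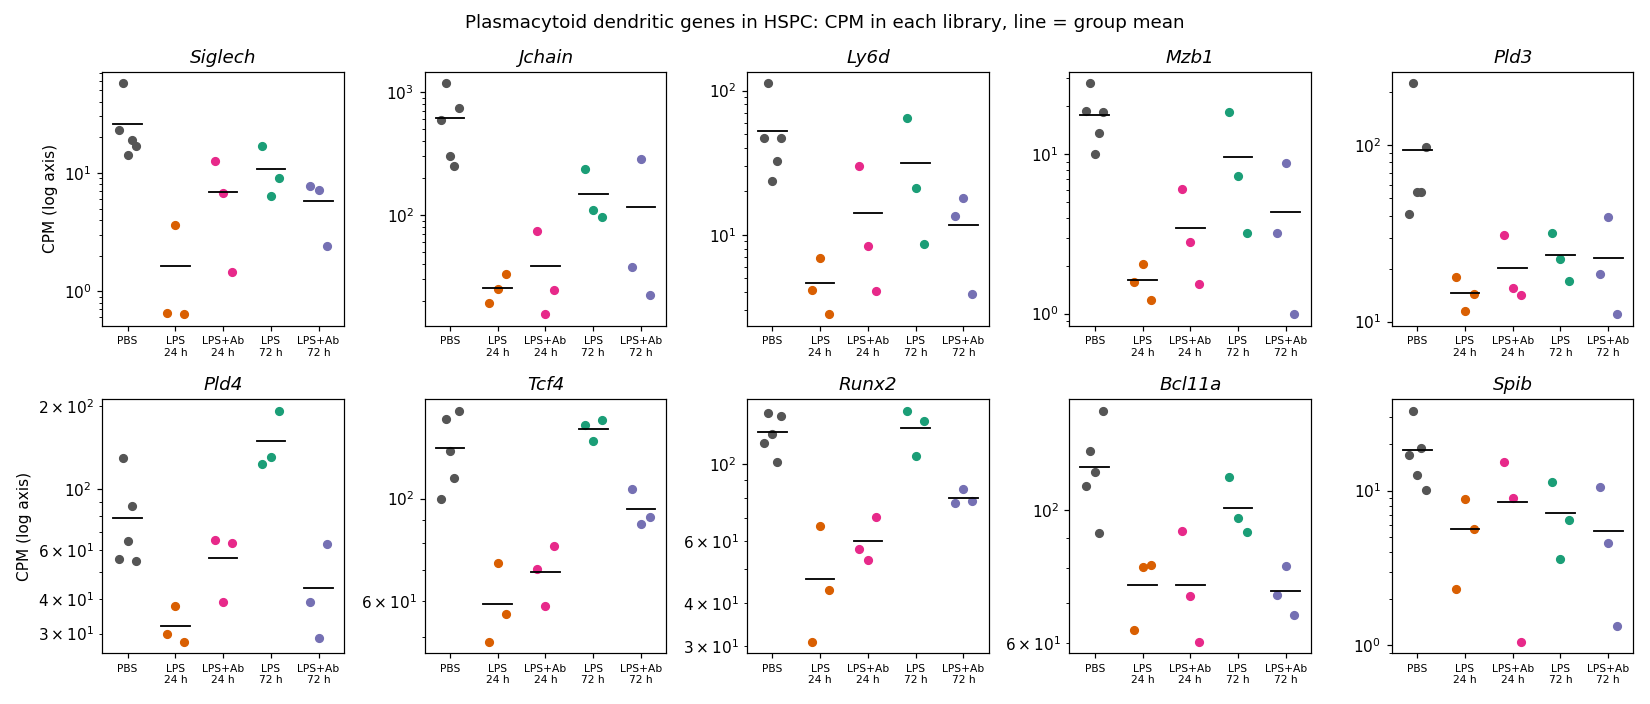
CPM on a log axis (vertical) of the 10 genes in each library, by group (horizontal); points are libraries in order of replicate number, lines are group means, and LPS+Ab is LPS with the interleukin-10 receptor antibody. All LPS 24 h libraries lie below all PBS libraries for all 10 genes, and Pld4 is the gene whose LPS 72 h mean lies farthest above its PBS mean, at 190% of it.

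Siglech encodes a sialic acid-binding lectin on the surface of plasmacytoid dendritic cells and some macrophages. It measured 23.1, 57.1, 14.3, 19.1 and 16.8 CPM in the PBS libraries 1 to 5, against 0.649, 3.64 and 0.638 CPM after 24 h of LPS. Those 3 LPS libraries held 7, 53 and 10 counts, so the level rests on few reads. The log2 change was -3.96 (SE 0.809). With the antibody at 24 h it was 12.6, 6.79 and 1.46 CPM, a spread that reached into the LPS 24 h range. At 72 h, LPS libraries held 16.8, 6.34 and 9 CPM, and those with the antibody 7.82, 7.19 and 2.4 CPM.

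Ly6d encodes a small surface protein that marks lymphoid progenitors on the way to B cells and plasmacytoid dendritic cells. Its PBS values were 47.2, 112, 23.5, 32.3 and 46.5 CPM, and the LPS 24 h values were 4.17, 6.87 and 2.81 CPM. The log2 change was -3.5 (SE 0.833). At 72 h of LPS the 3 libraries were far apart at 64.1, 21 and 8.63 CPM, the first inside the PBS range. With the antibody Ly6d measured 29.8, 8.36 and 4.07 CPM at 24 h and 13.4, 18 and 3.89 CPM at 72 h.

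Jchain encodes the joining chain of polymeric antibodies and is also transcribed in plasmacytoid dendritic cells. It was the most abundant of the 10 per length in PBS, with 598, 1180, 304, 250 and 746 CPM. After 24 h of LPS it measured 19, 24.7 and 33 CPM, a log2 change of -4.59 (SE 0.909), the greatest of the 10. At 72 h it had reached 236, 109 and 95.8 CPM, all below the lowest PBS library. Its share of the summed counts of the 10 genes ranged from 32.2% to 54.2% in PBS, from 7.84% to 12.4% in LPS at 24 h and from 13.6% to 26.2% at 72 h. With the antibody, 1 library at 72 h (replicate 2) held 287 CPM and the others 37.3 and 22.1 CPM, so that group spanned a 13-fold range.

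Mzb1, a chaperone of the endoplasmic reticulum that aids antibody assembly and secretion, followed Jchain at a lower level. PBS libraries held 18.6, 27.9, 10.1, 13.7 and 18.5 CPM, and LPS 24 h libraries 1.58, 2.06 and 1.21 CPM, a log2 change of -3.45 (SE 0.719). At 72 h the LPS libraries spread from 3.22 to 18.4 CPM. In the annotation (GENCODE vM21, GRCm38), exons of Mzb1 share 695 bases with SPATA24 on the same strand, so reads of the 2 genes may not have been told apart.

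The plasma cell marker list gives a view of antibody-secreting cells beside Jchain and Mzb1. Of its 14 genes 10 are in the table and 9 were tested. After 24 h of LPS 6 of the 9 were called lower and 2 higher, against 2767 lower and 2849 higher of all 14920 genes. Irf4, a factor of plasma cells and some dendritic cells, averaged 11.9 CPM in PBS and 2.35 CPM in LPS at 24 h, and Prdm1, the factor that drives plasma cell formation, 3.2 and 0.477 CPM. The summed list ran from 897 to 1340 CPM in PBS and from 1580 to 2880 CPM in LPS at 24 h, and most of that sum was Hsp90b1, a chaperone found in all cells. The part of such cells in the Jchain values was not tested.

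Pld3 and Pld4 encode endolysosomal exonucleases that trim single-stranded nucleic acid and so limit what endosomal Toll-like receptors meet. Both were lower at 24 h of LPS, and at 72 h their means lay on opposite sides of PBS. Neither was called against PBS at 72 h (edgeR adjusted p 0.211 for Pld3 and 0.265 for Pld4), and the genes were not tested against each other. Pld3 measured 40.8, 225, 54.6, 54.7 and 98.6 CPM in PBS and 17.8, 11.5 and 14.3 CPM in LPS at 24 h, a log2 change of -2.7 (SE 0.576). It was still at 31.8, 22.7 and 17 CPM at 72 h, below every PBS library, with a log2 change of -1.99 (SE 0.553).

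Pld4 started at 55.8, 129, 65.1, 86.6 and 54.7 CPM in PBS and stood at 30, 37.7 and 28.1 CPM in LPS at 24 h, a log2 change of -1.29 (SE 0.316). At 72 h of LPS it measured 123, 131 and 192 CPM, so that 2 of 3 libraries lay above the highest PBS library and the other within the PBS range. The log2 change from PBS at 72 h was 0.93 (SE 0.293). Next among the 10 was Tcf4, with a 72 h mean at 110% of its PBS mean.

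Tcf4, the E protein that sets plasmacytoid dendritic cell identity, measured 99.8, 149, 127, 111 and 155 CPM in PBS. It was at 49, 72.4 and 56.1 CPM after 24 h of LPS, a log2 change of -1.11 (SE 0.165), and at 144, 133 and 148 CPM after 72 h. Runx2, a factor needed for these cells to leave the marrow, went the same way: 115, 140, 122, 101 and 137 CPM in PBS, then 31, 66.2 and 43.4 CPM, then 142, 105 and 133 CPM. For both genes the LPS 24 h libraries lay below all others of the LPS and PBS groups, and the 72 h libraries lay within the PBS range, except the highest Runx2 library.

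Bcl11a, a zinc finger repressor needed for B cells and plasmacytoid dendritic cells, changed least. PBS libraries held 110, 126, 116, 91.8 and 147 CPM and LPS 24 h libraries 63, 80.5 and 81.1 CPM, a log2 change of -0.66 (SE 0.164). Spib, an Ets-family factor of B cells and plasmacytoid dendritic cells, measured 16.9, 32.8, 12.6, 18.7 and 10.1 CPM in PBS and 2.32, 8.86 and 5.68 CPM in LPS at 24 h. Its libraries were as scattered at 72 h of LPS, at 11.3, 3.63 and 6.44 CPM. Antisense genes share 519 exon bases with Runx2 and 316 with Bcl11a, and whether strand was used in counting is not given in the sources used here, so a part of those 2 counts is uncertain.

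The other 3 comparisons with PBS share the PBS libraries with the first, so they are given side by side only. With the antibody at 24 h, 6 of the 10 genes were called lower (12.5% of all genes), with log2 changes from -4.01 for Jchain to -0.48 for Pld4. Leaving out the antibody 24 h library 2 left 3 called lower, since Pld3, Bcl11a and Mzb1 dropped out. At 72 h of LPS, 0 of the 10 were called by edgeR, 3 had an unadjusted p below 0.05 (1702 of all genes), and DESeq2 called 1, Pld3. Of all genes 0.0201% were called there in either direction. With the antibody at 72 h, 3 were called lower, Pld3, Runx2 and Bcl11a (6.43% of all genes). That count was 0 without the antibody 72 h library 1 or without library 3, 1 without the PBS library 2 or 5, and 8 by DESeq2.

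From 24 h to 72 h of LPS, 7 of the 10 genes rose. They were Siglech, Ly6d, Jchain, Mzb1, Pld4, Tcf4 and Runx2, with log2 changes from 1.26 to 2.75. Of all genes tested 14.7% were called higher. For 8 of the 10 no 72 h library overlapped a 24 h library, against 22.4% of all genes in that direction. The 24 h libraries are those in which the genes were selected on low values, so this rise is not independent of the choice.

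The best resolved rises were those of Tcf4 (1.26, SE 0.18, edgeR adjusted p 0.000265), Runx2 (1.44, SE 0.219, adjusted p 0.000377) and Pld4 (2.22, SE 0.35, adjusted p 0.000453). Each was called with any 1 library left out. The surface and secretory genes had greater but noisier log2 changes: Ly6d 2.75 (SE 0.851, adjusted p 0.0229 by edgeR), Siglech 2.67 (SE 0.816, adjusted p 0.0216), Mzb1 2.57 (SE 0.738, adjusted p 0.0158) and Jchain 2.52 (SE 0.86, adjusted p 0.0363). Calls of these 4 were lost without the LPS 24 h library 1, the LPS 24 h library 3 or the LPS 72 h library 1, which left 3 called genes. Jchain was also not called without the LPS 24 h library 2, nor with the replicate block. Bcl11a (0.43, edgeR adjusted p 0.081), Pld3 (0.72, 95% interval -0.43 to 1.86) and Spib (0.33, -1.21 to 1.86) were not called.

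With the antibody, 0 of the 10 genes were called between 24 h and 72 h by edgeR, and 0% of all genes tested. Unadjusted p lay below 0.05 for 635 genes, among them 1 of the 10, Tcf4, and DESeq2 called 1 gene, none of the 10. Tcf4 went from 70.5, 58.4 and 78.9 CPM to 105, 88.2 and 91.3 CPM (log2 change 0.45, SE 0.178), and Runx2 from 57, 53.1 and 70.6 CPM to 77.1, 84.9 and 78.2 CPM (0.41, SE 0.215). The 72 h libraries lay above the 24 h libraries for these 2 genes and overlapped for the other 8. Pld4 went from 65.3, 39.1 and 64 CPM to 39, 29 and 63.4 CPM, a log2 change of -0.36 with a 95% interval of -1.02 to 0.3.

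The fall after LPS on which genes were selected is not stated to be at 24 h alone, and earlier results of these data were known. The antibody effect at 72 h is measured against the LPS 72 h libraries, so its p-values may not be independent of the choice either. The effect at 24 h is measured against the LPS 24 h libraries, in which all 10 genes were low, so its estimates are not independent of the choice and are given as a description. At 24 h, 0 of the 10 were called by edgeR, and 0% of all genes. An unadjusted p below 0.05 was seen for 273 genes, of which 2 are among the 10, Siglech (log2 change 2.06, 95% interval 0.47 to 3.65) and Pld4 (0.81, 0.15 to 1.48), and DESeq2 called 1 gene, none of the 10. The Pld4 libraries did not overlap, at 65.3, 39.1 and 64 CPM with the antibody against 30, 37.7 and 28.1 CPM without. Those of Siglech did. For 9 of the 10 genes the estimate was above 0, with a median log2 change of 0.58 against 0 for all genes. The antibody 24 h library 1 was the highest of its group for 8 of the 10, and it also held the highest sums of conventional dendritic cell markers (1310 CPM against 654 to 697) and of B-lymphoid markers (139 against 64.3 to 78.3 CPM); their part in the result was not tested.

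At 72 h, 3 of the 10 genes were lower with the antibody than with LPS alone: Pld4, Tcf4 and Runx2. Of all genes 6.48% were called lower. All 10 estimates were below 0, with a median log2 change of -0.62 against 0.01 for all genes. There was no overlap between libraries for 4 genes, these 3 and Bcl11a, against 16.1% of all genes.

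Pld4 had the greatest decrease of the 10, from 123, 131 and 192 CPM to 39, 29 and 63.4 CPM. It was 3.39-fold lower, a log2 change of -1.76 (SE 0.344, adjusted p 0.00484 by edgeR). The call held with any 1 of the 6 libraries left out (log2 change -2.13 to -1.5, adjusted p 0.00572 to 0.0214) and under the 6 other settings tried. By a two-sided exact permutation test of log2 CPM, p was 0.1 for Pld4, Tcf4, Runx2 and Bcl11a, which is the smallest that 3 against 3 libraries allow, and 0.25 after adjustment over the 10 genes.

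Tcf4 went from 144, 133 and 148 CPM with LPS alone to 105, 88.2 and 91.3 CPM with the antibody, a log2 change of -0.58 (SE 0.178, adjusted p 0.0404 by edgeR). Runx2 went from 142, 105 and 133 to 77.1, 84.9 and 78.2 CPM, a log2 change of -0.66 (SE 0.215, adjusted p 0.0484). Both calls lay close to the threshold and were lost when any 1 of the 6 libraries was left out, with adjusted p up to 0.126 for Tcf4 and 0.166 for Runx2. Without a filter on low counts, or with the replicate block, Pld4 alone was called.

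Bcl11a, at 114, 97 and 91.9 CPM against 72.1, 80.7 and 66.8 CPM, had a log2 change of -0.46 and an edgeR adjusted p of 0.0895. The surface and secretory genes could not be placed: the 95% interval of the log2 change was -2.98 to 0.16 for Ly6d, -2.51 to 0.19 for Mzb1, -2.36 to 0.58 for Siglech and -1.93 to 1.24 for Jchain. Pld3 lay near 0, at -0.06 with an interval of -1.19 to 1.07, and Spib at -0.38 with -1.92 to 1.16. The antibody 72 h library 3 was lowest of its group for 7 of the 10 genes but highest for Pld4.

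**Figure D2:**
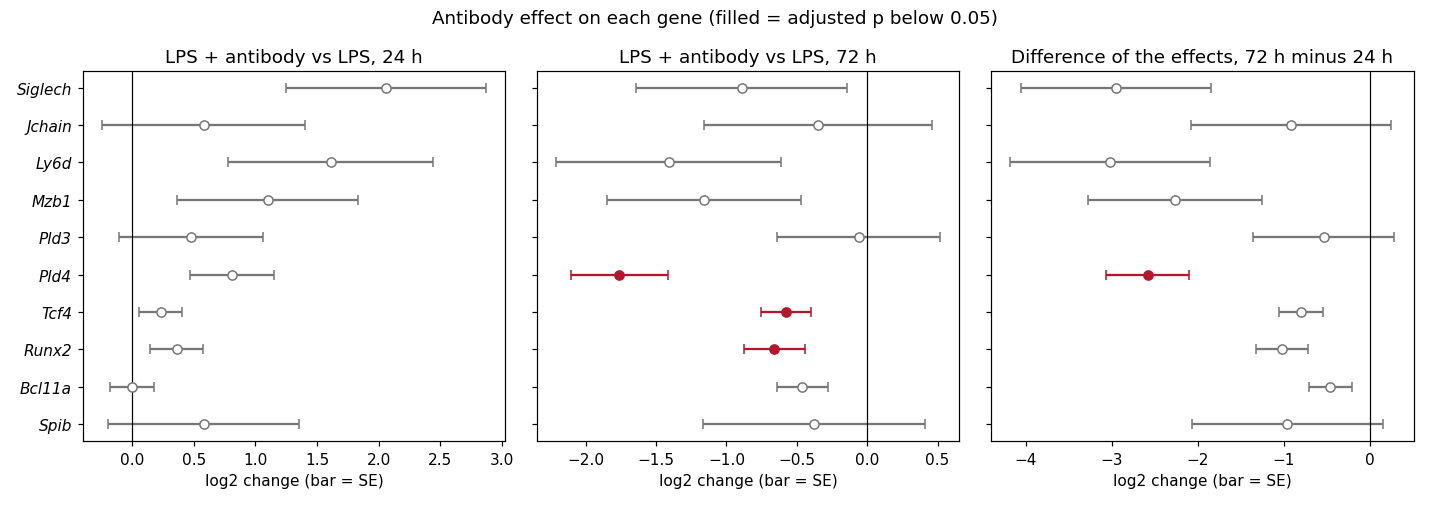
Log2 change with the antibody against LPS alone at 24 h and at 72 h, and the difference of the 2 changes (horizontal axes), for each gene (vertical axis); points are estimates from edgeR, bars are 1 SE on each side, and filled points have an adjusted p below 0.05. Pld4 is at 0.81 at 24 h, at -1.76 at 72 h and at -2.58 for the difference.

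The change in the antibody effect between the times was fitted as 1 term. It takes in the LPS 24 h libraries, in which Pld4, Jchain and Pld3 were selected on low values, so for the 10 genes it is not independent of the choice and its p is no independent test. For Pld4 it was -2.58 on the log2 scale (SE 0.483, adjusted p 0.0104 by edgeR), from a 24 h estimate above 0 to a 72 h estimate below 0. Pld4 was the one gene of the 10 that was called, and 2.32% of all genes were called in that direction. The call held in each of 12 fits with 1 library left out, and the count was 4 without the LPS 24 h library 2 and 3 without the antibody 24 h library 2. Runx2 (-1.02, edgeR adjusted p 0.056) and Tcf4 (-0.8, adjusted p 0.0676) fell just short, and DESeq2 called them too, 3 genes in all. Siglech (-2.95, SE 1.1) and Ly6d (-3.02, SE 1.16) had greater estimates with wide error and edgeR adjusted p of 0.114 and 0.122.

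Other genes of plasmacytoid dendritic cells were taken from a list of 26, of which 24 were tested (Ptcra and Cd209d fell under the filter). At 72 h, 7 of the 24 were lower with the antibody, against 6.48% of all genes. Csf2rb, a shared cytokine receptor chain, was the 1 gene called higher. The list's median log2 change was -0.57 against 0.01 for all genes. Upb1, an enzyme of pyrimidine breakdown, had a log2 change of -3.11 (SE 0.722, adjusted p 0.0111 by edgeR). Cox6a2, a subunit of cytochrome oxidase, was at -2.39 (SE 0.555, adjusted p 0.0111), and Cd300c, a surface receptor, at -2.36 (SE 0.632, adjusted p 0.0214). Irf8, the factor that directs progenitors to dendritic and monocytic fates, was at -1.47 (SE 0.363, adjusted p 0.0147). Without the LPS 72 h library 1, or without the antibody 72 h library 1, 4 were called lower.

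Irf8 went along with Pld4 in these groups: 544, 423 and 720 CPM with LPS at 72 h, against 192, 151 and 265 CPM with the antibody and 281 to 495 CPM in PBS. The third library was the highest of the 3 for both genes in both groups. Upb1 and Cd300c are low in abundance, with 2 to 11 and 3 to 10 counts in the antibody 72 h libraries against 27 to 79 and 27 to 43 counts with LPS alone. No library of the 2 groups overlapped for any of these 4 genes, against 16.1% of all genes in that direction. The 4 were picked by their change in this same comparison, so nothing is read from that. The call for Irf8 was lost without the antibody 72 h library 1 or 2, and those for Upb1, Cox6a2 and Cd300c without the LPS 72 h library 1 (Cd300c also without the antibody 72 h library 1).

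**Figure D3:**
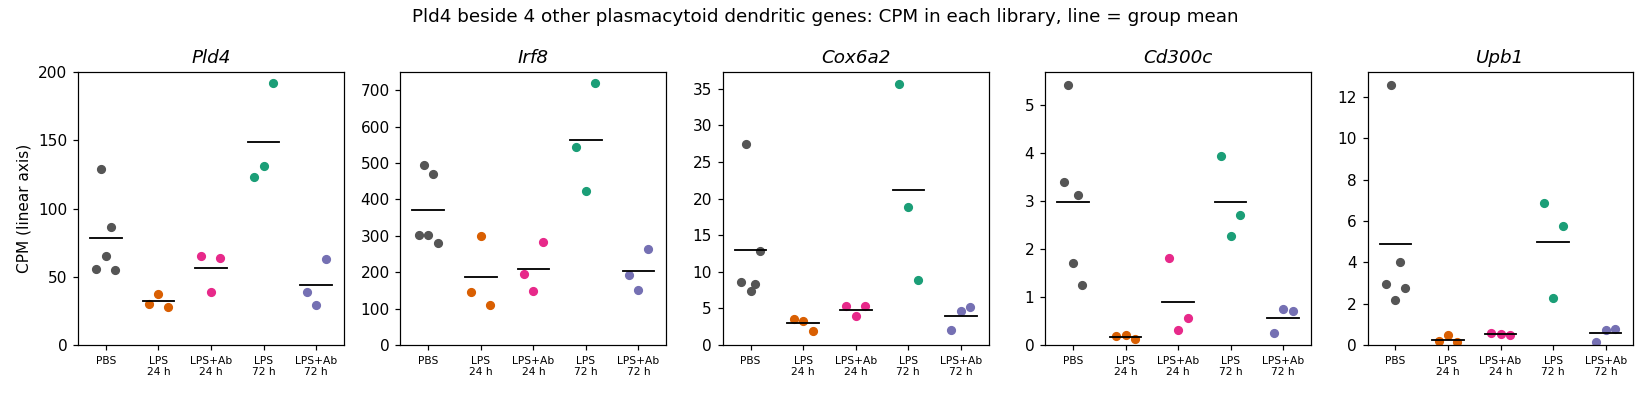
CPM on a linear axis from 0 (vertical) of Pld4 and the 4 genes of the other plasmacytoid dendritic list with the greatest called change at 72 h, by library and group (horizontal); points are libraries, lines are group means, and LPS+Ab is LPS with the antibody. All 5 genes are lower, with no overlap, in the antibody 72 h libraries than in the LPS 72 h libraries, the comparison by which the 4 were picked. The LPS 72 h libraries of Upb1 and Cd300c lie within their PBS ranges.

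Over time with LPS alone, 12 of the 24 listed genes rose from 24 h to 72 h, against 14.7% of all genes. By edgeR 0 of the 24 were called lower. Upb1 (4.17), Cd300c (4.04), Blnk (2.91), an adaptor of B-cell receptor signalling, and Cox6a2 (2.85) had the greatest log2 changes, with edgeR adjusted p from 0.000962 to 0.00192. With the antibody 0 of 24 were called between the times by edgeR. The antibody effect differed between the times for 5 of the 24, all in the negative direction, against 2.32% of all genes. Among the 5 were Cd300c (-4.72, edgeR adjusted p 0.0145), Cox6a2 (-3.12, adjusted p 0.0308) and Il3ra, a cytokine receptor chain (-1.37, adjusted p 0.0363). The count of listed genes was 1 without the antibody 24 h library 1, 2 without the LPS 24 h library 3, the antibody 24 h library 3, the LPS 72 h library 1 or the antibody 72 h library 1, and 3 without the LPS 72 h library 2 or the antibody 72 h library 3. With the replicate block it was 3, and DESeq2 called 8.

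Few of the receptors and helpers that act beside Pld3 and Pld4 in endolysosomes were called at 72 h. Of 15 tested, 1 was lower with the antibody and 1 higher. Of all 14920 genes 6.48% were lower and 1289 genes were higher, so nothing is read from these counts. Unc93b1, which carries endosomal Toll-like receptors to their compartment, was lower by a log2 change of -0.88 (SE 0.186, adjusted p 0.00736 by edgeR), and the antibody effect differed between the times (-1.29, adjusted p 0.0139). Myd88, the adaptor of those receptors, was higher by 0.85 (SE 0.185, adjusted p 0.00809 by edgeR). These 3 calls held with any 1 library left out. At 24 h of LPS against PBS, 6 of the 15 were lower (18.5% of all genes), among them Tlr7, a receptor for single-stranded RNA (-2.32, SE 0.377), and 2 were higher. Irf7, Tlr7, Tlr9 and Unc93b1 are also in the other plasmacytoid dendritic list.

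Of the relatives and opponents of Tcf4, 5 were tested. Tcf3 and Tcf12, the other E proteins, were not called for the antibody effect at 72 h. Id1, an inhibitor of E proteins, was higher with the antibody by 1.53 (SE 0.49, adjusted p 0.047 by edgeR), a call lost when any 1 of the 6 libraries was left out. It was the only one of the 5 called there, and their median log2 change was 0.1 against 0.01 for all genes. In LPS at 24 h against PBS, Id1 was at 2.15 (SE 0.417), while Id3, another Id protein, was at -2.28 (SE 0.583). Among 11 paralogs of the genes, Pld2, a membrane lipid phospholipase, was lower by -1.07 on the log2 scale (SE 0.306, adjusted p 0.0293 by edgeR) and Siglecg, an inhibitory lectin of B cells, by -1.69 (SE 0.386, adjusted p 0.0103). Siglecg was called with any 1 library left out, while Pld2 was called in 1 of the 6 such fits. Siglec1, a macrophage lectin, was called higher (5.78, SE 1.79, adjusted p 0.0406 by edgeR), at 0.212 to 18.6 CPM with the antibody against 0 to 0.169 CPM with LPS alone, where so few counts leave the size of the change unsettled. That call was lost without any 1 of the LPS 72 h libraries, without the antibody 72 h library 2 and with the replicate block.

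The 10 genes did not vary as 1 block from library to library. Pearson's r of log2 CPM over the 17 libraries, which share group structure and scaling, ranged from 0.225 to 0.974 over 45 pairs with a median of 0.746. After each group's mean was removed, the median was 0.397 and 40 of the 45 were above 0. Siglech, Ly6d, Jchain and Mzb1 kept r from 0.492 to 0.941 in their 6 pairs, and Tcf4, Runx2 and Bcl11a from 0.427 to 0.776 in 3 pairs. These sets were picked for display and were not separate. Bcl11a had a higher r to Jchain (0.688) and Ly6d (0.654) than to Tcf4 (0.427) or Runx2 (0.431). Outside both sets, Pld3 had r of 0.788 to Jchain, and Spib 0.897 to Siglech. Pld4 stood apart, with r from -0.333 to 0.387 to the other 9 genes. These values are descriptions.

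**Figure D4:**
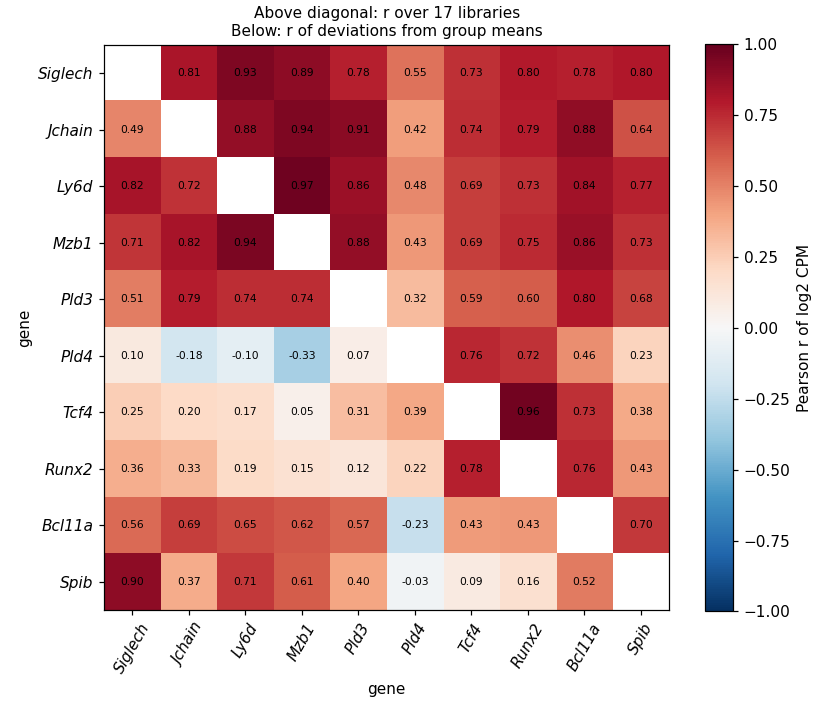
Pearson's r of log2 CPM between each pair of the 10 genes (both axes), over 17 libraries above the diagonal and after removal of group means below it; colour runs from -1 (blue) to 1 (red). The entries of Pld4 below the diagonal run from -0.333 to 0.387. Tcf4 and Runx2 also have pale entries there, such as 0.0478 for Tcf4 with Mzb1 and 0.118 for Runx2 with Pld3.

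Outside the 10, the genes most like their mean over the 17 libraries were Ets1 (r 0.967), Lynx1 (0.966), Fcgrt (0.961), Tnfrsf13c (0.961) and St6gal1 (0.96). Ets1, a lymphoid Ets-family factor, averaged 58.4 CPM in PBS, 17.6 in LPS at 24 h and 41.9 at 72 h, and Tnfrsf13c, a B-cell survival receptor, 10.8, 2.81 and 6.49 CPM. Most like Jchain were Itga9 (0.976), St6gal1 (0.962) and Tbxas1 (0.961), and most like Siglech were Lynx1 (0.956), Slc41a2 (0.943) and Ccr9 (0.941), the gut-homing receptor. For Pld4, which was added to this search after its values were seen, they were Ifnar2 (0.959), Kmo (0.954) and Ctsh (0.954).

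Some markers of other cells that an HSPC sort could hold moved with the 10 genes, and others did not. Beside the counts of called markers below, 18.5% of all genes were called lower in LPS at 24 h against PBS. From 24 h to 72 h of LPS 14.7% were called higher, and 6.48% were called lower with the antibody at 72 h. The summed level of 15 B-lymphoid markers was 224 to 323 CPM in PBS, 53.6 to 106 in LPS at 24 h, 122 to 315 at 72 h and 61.5 to 180 at 72 h with the antibody, and 7 of the 15 were called lower at 24 h (3 without the LPS 24 h library 1, 4 without the LPS 24 h library 3, 11 by DESeq2). No B-lymphoid marker was at a mean of 0 in any group. The 14 conventional dendritic cell markers summed to 965 to 1740 CPM in PBS, 668 to 747 in LPS at 24 h, 1260 to 2090 at 72 h and 652 to 1210 at 72 h with the antibody.

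At 72 h, 5 of those 14 were lower with the antibody, among them Itgax, an integrin of dendritic cells, by a log2 change of -1.98 (SE 0.343, adjusted p 0.00272 by edgeR), and Batf3, a factor for cross-presenting dendritic cells, by -1.97 (SE 0.507, adjusted p 0.0181). Without the LPS 72 h library 1 the count was 2 and without the LPS 72 h library 3 it was 3, while Itgax was called with any 1 library left out. Of the 14, Cd209a alone was at 0 in a group, LPS at 24 h. Of the 15 B-lymphoid markers 1, Cd22, was lower with the antibody at 72 h (-2.14, edgeR adjusted p 0.041), and it was not called without the LPS 72 h library 1 or 3 or the antibody 72 h library 1 or 2. The part of these markers in the changes of the 10 genes was not tested.

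Monocyte and macrophage markers summed to 725 to 4080 CPM in PBS, 352 to 496 in LPS at 24 h, 762 to 1390 at 72 h and 479 to 804 at 72 h with the antibody, and none of the 16 was at a mean of 0 in any group. The median log2 change of the 16 did not follow the sum. Against PBS it was -3.88 in LPS at 24 h and -3.46 at 72 h, and from 24 h to 72 h of LPS it was 0.17. With the antibody against LPS alone at 72 h it was 1.73, while 2 of the 16 were called lower and 0 higher. The lymphoid priming genes, which mark the earliest lymphoid progenitors, summed to 2180 to 2980 CPM in PBS, 734 to 1110 in LPS at 24 h, 2320 to 3670 at 72 h and 1130 to 1940 with the antibody. Of these 13 genes, 12 rose from 24 h to 72 h of LPS (7 without the LPS 72 h library 1) and 4 were lower with the antibody at 72 h. That last count was 0 without the LPS 72 h library 1, the LPS 72 h library 2 or the antibody 72 h library 1, 1 without the antibody 72 h library 3 and 2 without the LPS 72 h library 3. The lists share genes, so their counts and sums are not independent. Il7r, Rag1 and Rag2 are also B-lymphoid markers, Flt3 and Ccr9 are also in the other plasmacytoid dendritic list, and Flt3 is among the HSPC genes below.

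Erythroid markers had a higher median sum in LPS at 24 h than in PBS, 1010 against 382 CPM, with 1 of the 11 called higher by edgeR and 1 lower. They summed to 336 to 573 CPM in PBS, 534 to 1310 in LPS at 24 h, 109 to 204 at 72 h and 234 to 1290 at 72 h with the antibody. Neutrophil markers overlapped between all groups, at 2700 to 15300 CPM in PBS, 8950 to 17800 in LPS at 24 h, 6640 to 13400 at 72 h and 3830 to 12800 with the antibody. The sums of T and NK cell markers also overlapped between PBS (115 to 283 CPM), LPS at 24 h (117 to 281) and LPS at 72 h (173 to 239), with 72 to 188 CPM at 72 h with the antibody. Their median log2 change did not follow the sum: -1.24 in LPS at 24 h against PBS, 1.23 from 24 h to 72 h of LPS and -1.44 with the antibody at 72 h. In the same order, edgeR called 3 of the 14 lower, 4 higher and 1 lower, and 1 lower. The count of 4 ranged from 0 to 5 with 1 library left out.

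The summed level of the genes that define HSPC moved with the 10 genes as well. These 11 genes summed to 1750 to 2580 CPM in PBS, 1090 to 1250 in LPS at 24 h, 1830 to 2400 at 72 h and 1240 to 1800 at 72 h with the antibody. In LPS at 24 h against PBS, 7 of the 11 were called lower by edgeR, with a median log2 change of -1.3 against -0.03 for all genes, among them Mecom, a factor of stem cells (-2.63, SE 0.472), and Flt3 (-2.45, SE 0.447). With the antibody at 24 h against PBS, 6 of the 11 were called lower and 1 higher, Ly6a (2.21, SE 0.681). From 24 h to 72 h of LPS, 6 of the 11 rose. At 72 h Cd34 was lower with the antibody by a log2 change of -0.78 (SE 0.243, adjusted p 0.042 by edgeR), a call that held in 1 of the 6 fits with 1 library left out. The part of these shifts in the changes of the 10 genes was not tested.

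**Figure D5:**
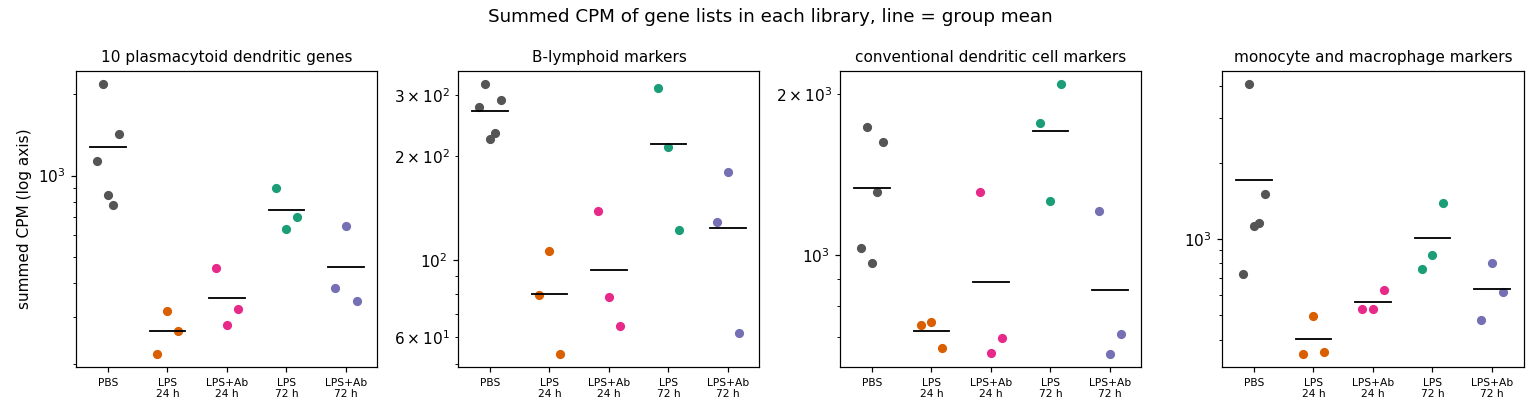
Summed CPM on a log axis (vertical) of the 10 genes and of 3 marker lists, by library and group (horizontal); points are libraries, lines are group means, and LPS+Ab is LPS with the antibody. The 10 genes sum to 779 to 2180 CPM in PBS, 219 to 314 in LPS at 24 h and 636 to 901 at 72 h, and the group means of the 3 marker lists are also lowest in LPS at 24 h. A sum follows its most abundant genes: the median monocyte and macrophage marker had a log2 change of 0.17 from 24 h to 72 h of LPS.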

How the data were processed

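The authors deposited 1 table of raw counts per gene symbol for the 17 libraries. Per the submitters' processing notes, HISAT2 2.2.0, Subread, featureCounts 2.1.1, R 4.3.2 and DESeq2 were used, with GRCm38. The annotation, the strand setting and the treatment of multi-mapping reads are not given in the sources used here. All 17 columns were matched to titles, and 0 were left over.

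The 10 genes and all gene lists were chosen with earlier results of these data known. Counts were analysed in R 4.3.3 with edgeR 4.0.16: filterByExpr (minimum count 10, minimum total 15), TMM factors, and 1 quasi-likelihood fit (glmQLFit, glmQLFTest) with a mean per group over all 17 libraries. P-values were adjusted by Benjamini-Hochberg over all 14920 genes tested, in each of 9 comparisons, and called below 0.05. The SE is the absolute log2 change divided by the square root of F, and 95% intervals are 1.96 SE on each side. Log2 CPM used a prior count of 2. DESeq2 1.42.0 was an alternative. The code was tested on simulated data.

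Exon lengths and positions are those of GENCODE vM21 (GRCm38), and the promoter windows are from RefSeq (GRCm38.p6). From each other list, the text names up to 4 called genes with the greatest log2 change in a comparison, or further ones where a small count is named, those being chosen after their values were seen. Same-numbered libraries deviated together, weakly, in all 3 pairs of LPS at 24 h and PBS (r 0.158 to 0.191). No label states a pairing, so whether the numbers pair those groups is not settled. The block changed no call of the 10 genes there, though it fits the PBS libraries 4 and 5 with a term each. The check was not met in the other comparisons. Among them, r was 0.723, -0.0217 and 0.697 for the antibody groups at 72 h and 24 h.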

Additional observations from a re-analysis of the deposited data

Results flagged for a closer look

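Siglech and Ly6d each had 1 PBS library far above the other 4. The gap from the PBS library 2 to the next, as a share of the group's range, was 0.794 for Siglech (57.1 against 14.3 to 23.1 CPM) and 0.733 for Ly6d (112 against 23.5 to 47.2 CPM). For normally distributed values, about 1 in 20 groups would show such a gap by chance. Here CPM was checked on its linear scale for 10 genes in the same libraries, so that rate is not exact. Only PBS held enough libraries for the check. Its library 2 was highest for 8 of the 10 genes.

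The antibody effect on Pld4 differed between the times by -2.58 on the log2 scale (SE 0.483, adjusted p 0.0104 by edgeR). The estimate was 0.81 at 24 h and -1.76 at 72 h. The 24 h estimate is measured against the LPS 24 h libraries, in which Pld4 was selected on low values, so the difference and its p are not independent of the choice of the gene.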

How the results depend on the processing

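Settings tried were other scaling factors, no filter on low counts, DESeq2, only the groups compared, the replicate number as a block, and each library left out. Leaving out 1 library moved the count of called genes of the 10 between 3 and 8 with the antibody at 24 h against PBS, 0 and 4 with the antibody at 72 h against PBS, 3 and 7 for LPS at 72 h against 24 h, 1 and 1 for the antibody effect at 72 h, and 1 and 4 for the difference of the antibody effects. DESeq2 called 1 for LPS at 72 h against PBS, 8 with the antibody at 72 h against PBS and 3 for the difference of the effects. Fitting only the groups compared gave 5 with the antibody at 72 h against PBS, and no filter called 1 for the antibody effect at 72 h. Across the 10 genes and 9 comparisons, direction and call were unchanged in 600 of 680 fits with a library left out and in 510 of 540 under other settings.

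Signs changed only for genes that were not called, on leaving out 1 library and, for 1 estimate at 0 (Bcl11a), under other settings too. The log2 ranges were -0.04 to 0.17 for Runx2 in LPS at 72 h against PBS, and -0.17 to 0.81 for Spib from 24 h to 72 h of LPS. With the antibody from 24 h to 72 h they were -0.37 to 2.53 (Jchain), -0.45 to 0.63 (Pld3), -0.76 to 0.48 (Siglech), -0.18 to 0.15 (Bcl11a), -0.72 to 0.91 (Ly6d), -1.54 to 0.13 (Spib) and -0.75 to 0.97 (Mzb1). For the antibody effect at 24 h they were -0.36 to 0.95 (Jchain), -0.18 to 1.11 (Spib) and -0.18 to 0.14 (Bcl11a, -0.01 to 0.02 under other settings), at 72 h -2.26 to 0.18 (Jchain), -0.65 to 0.28 (Pld3) and -1.24 to 0.11 (Spib), and for their difference -2.86 to 0.02 (Jchain). The cause was not tested.

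With the replicate number as a block, 1 gene, Pld4, was called for the antibody effect at 72 h, 6 for LPS at 72 h against 24 h (without Jchain), 8 with the antibody at 24 h against PBS (Siglech and Ly6d added), and 2 with the antibody at 72 h against PBS (Ly6d and Mzb1 in place of Pld3, Runx2 and Bcl11a). No label says that libraries with the same number are paired. Replicates 4 and 5 exist in PBS only, so the block fits each of those libraries with a term of its own. They then add nothing to the comparisons with PBS, here or over all genes.

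Over all genes, counts of calls moved by more than 1.5 times in some fits. For LPS at 72 h against PBS, 3 genes became 99 with only the groups compared, 0 with the block and 172 by DESeq2. Of 3605 with the antibody at 24 h against PBS, 1721 were called with the block, and of 1975 at 72 h, 374. For the antibody effect at 72 h 2256 became 1123 with only the groups compared, and for the difference of the effects 947 became 617 without a filter, 286, 333 and 1710 with only the groups compared, the block and DESeq2. Upper-quartile factors moved the median of all genes from -0.03 to -0.16 in LPS at 24 h against PBS. Siglech, Spib, Mzb1 and Ly6d rest on few counts after LPS, and 3 libraries a group leave their intervals wide.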
